A study of Mus musculus with 36 samples.

Results

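Btbd35f genes are a mouse family of closely similar X-linked copies that carry a BTB domain, a fold through which proteins bind each other, and the family is known as a multicopy germline group. Of the 30 family genes in the RefSeq annotation of mm10, 6 are described here: Btbd35f3, Btbd35f5, Btbd35f10, Btbd35f12, Btbd35f16 and Btbd35f30. H2AK119ub1, a ubiquitin mark on histone H2A, was available per 250 kb window and not per gene, so a gene was placed in the window that holds its midpoint. The 6 genes fell into 4 windows of 414 on the X chromosome with allele-specific values. Btbd35f10 (chrX:3750931-3752885) and Btbd35f16 (chrX:3955043-3957002) share the window chrX:3750001-4000000, and Btbd35f3 (chrX:4037674-4039622) lies in the next one, chrX:4000001-4250000. Btbd35f30 (chrX:32894527-32896367) and Btbd35f5 (chrX:32973897-32975846) share chrX:32750001-33000000, and Btbd35f12 (chrX:33313338-33315288) lies in chrX:33250001-33500000. The Btbd35f10 and Btbd35f16 window also holds Spin2-ps1, annotated as protein-coding, and the Btbd35f3 window also holds Btbd35f28. The Btbd35f12 window also holds the genes Gm2854 and Gm2892, so no value below belongs to a single gene. The genes were chosen by the allelic changes of their windows in the 24 h libraries of this series, which were extreme, so the 24 h values are given as a description with no test. Tests are given for the 3 h libraries and for input DNA, which that choice did not use.

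Xist is the long noncoding RNA that coats 1 X chromosome in female cells and silences it. Xist brings in a Polycomb complex of the PRC1 type, whose RING1 subunits place H2AK119ub1 along the coated chromosome. Spen is a large RNA-binding protein that reaches Xist through its RRM domains and recruits corepressors through its SPOC domain. Multicopy gene families make up long blocks of repeated sequence on the mouse X, and many of them are transcribed in germ cells.

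The 36 libraries came from female mouse embryonic stem cells of a 129S x Cast cross in which a TetOn promoter had replaced the Xist promoter on the 129S X, in all groups, controls included. The groups were Spen RRM deletion clones with Xist induced and uninduced, SPOC mutant clones induced and uninduced, and the parental iXist-ChrX line, called WT, induced and uninduced. Cells were induced for 3 h or 24 h with doxycycline at 1 µg/mL, and uninduced libraries had 0 h. The 3 h series held 10 H2AK119ub1 libraries: 2 clones of each mutant in both states and 1 pair of WT libraries, all handled on the same day. The 24 h series held 14 H2AK119ub1 libraries (2 clones of each mutant and 3 WT pairs) and 12 inputs, with none for WT replicate 3. At 24 h each genotype and each WT replicate was handled on its own occasion, so there genotype and occasion cannot be told apart. Spen clone C3 was used in both series, with D4 at 24 h and C4 at 3 h. The labels call C4 a full knockout and say that C3 and D4 make a spurious truncated product. The SPOC clones were C11 and H1 at 3 h and E7 and H1 at 24 h. For the 4 SPOC H2AK119ub1 libraries of the 24 h series the titles and the names of the deposited files give opposite states. The states of the file names are used here, and exchanging them turns the sign of every SPOC change at 24 h. WT, with no replicate pair at 3 h, takes its spread there from the other groups of the fit.

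How alike the copies are can be seen in their promoters (250 bases before to 50 bases after the gene's start), as far as these were at hand. The RefSeq promoter table for the mm10 assembly held 9 of the 30 family genes, and of the 6 listed genes it held Btbd35f3 only. Btbd35f28, in the same window as Btbd35f3, and Btbd35f13, in the other cluster, are printed beside it, all on the plus strand at chrX:4037424-4037723, chrX:4196326-4196625 and chrX:33656890-33657189. Capitals mark the 6 positions at which the 3 promoters are not all alike.
Btbd35f3: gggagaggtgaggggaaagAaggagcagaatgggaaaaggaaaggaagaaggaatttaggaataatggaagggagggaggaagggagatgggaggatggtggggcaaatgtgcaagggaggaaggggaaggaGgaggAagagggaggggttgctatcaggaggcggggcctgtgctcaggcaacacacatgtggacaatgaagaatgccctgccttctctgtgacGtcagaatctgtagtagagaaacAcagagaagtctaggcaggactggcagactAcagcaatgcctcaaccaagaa
Btbd35f28: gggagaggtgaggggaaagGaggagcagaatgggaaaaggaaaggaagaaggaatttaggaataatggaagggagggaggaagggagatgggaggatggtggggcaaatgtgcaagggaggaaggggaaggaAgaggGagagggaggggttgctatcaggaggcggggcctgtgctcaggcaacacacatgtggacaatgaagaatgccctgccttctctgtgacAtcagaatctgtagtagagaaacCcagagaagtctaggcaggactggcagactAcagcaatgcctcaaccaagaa
Btbd35f13: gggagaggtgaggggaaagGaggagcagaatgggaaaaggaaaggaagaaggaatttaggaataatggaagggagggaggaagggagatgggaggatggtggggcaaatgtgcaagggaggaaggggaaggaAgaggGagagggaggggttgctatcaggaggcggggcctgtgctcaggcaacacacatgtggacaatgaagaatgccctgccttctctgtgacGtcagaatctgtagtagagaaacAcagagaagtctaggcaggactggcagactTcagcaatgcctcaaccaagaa

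Over 300 bases the promoter of Btbd35f4 was identical to that of Btbd35f3, that of Btbd35f13 differed at 4 positions, that of Btbd35f28 at 5 and that of Btbd35f7 at 7. Of the others, Btbd35f6 differed at 5 of 268 bases compared and Btbd35f8 at 7 of 297, and Btbd35f21 and Btbd35f22 could not be aligned without gaps. The letters TGACGTCA, the cAMP response element, searched on both strands, were found in 3 of the 9 promoters (Btbd35f3, Btbd35f4 and Btbd35f13) and in 1.79% of all 32851 promoters of the table. The other 6 held TGACATCA, which 3.62% of all promoters hold, and no promoter of the 9 held both. Of the 50-base stretches of these promoters, those also found letter for letter in that of Btbd35f3 made up 100% in Btbd35f4, 61.4% in Btbd35f13, 41.0% in Btbd35f28 and 22.3% in Btbd35f22, the lowest. How the authors treated fragments that match several copies is not given in the sources used here.

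The 4 windows held few fragments that could be assigned to either parental genome. The deposited signal came in steps of 1 fragment, with 92.3% to 100% of a library's low values at whole multiples of the step (tolerance 8%), so fragments could be counted. In the H2AK119ub1 libraries the Btbd35f10 and Btbd35f16 window held a median of 66 fragments of genome 2 (range 37 to 116) and 84 of genome 1 (49 to 167). The Btbd35f3 window held 110 (67 to 182) and 105 (56 to 196), and the Btbd35f30 and Btbd35f5 window 82 (56 to 154) and 94 (63 to 230). The Btbd35f12 window, the best covered, held 146 (97 to 257) and 203 (164 to 485). The median window of the chromosome held 670 fragments of genome 2 and 406 of genome 1, so every member window held fewer fragments of each genome than the median window.

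Input DNA showed the same shortage. There the 4 windows held medians of 25, 43, 36 and 61 fragments of genome 2 and 38, 38, 45 and 84 of genome 1 in the order above, against 148 and 144 in the median window. Only 10.0% to 16.5% of the members' H2AK119ub1 signal was assigned to either genome, against 46.8% in the median of 353 windows, and these shares ranked between 16 and 33 from the lowest. The total signal was not short in the same way: in input the 4 windows stood at 90.5%, 110%, 85.4% and 133% of the median window, and in H2AK119ub1 at 67.9%, 80.4%, 60.3% and 99.8%.

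The windows tested were those in which both genomes averaged at least 10% of the median window. They numbered 353 of 414 and included all 4 members. The Btbd35f10 and Btbd35f16 window stood just inside this limit, at 12.2% on genome 2, and the windows of Btbd35f18 (6.43%) and of Btbd35f13, Btbd35f14 and Btbd35f15 (9.34%) just outside. Counting alone gives the log2 ratio of genome 2 to genome 1 a standard error of 0.238, 0.199, 0.219 and 0.157 in an H2AK119ub1 library, in the order above, against 0.0922 in the median window. These errors cover counting only.

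**Figure D1:**
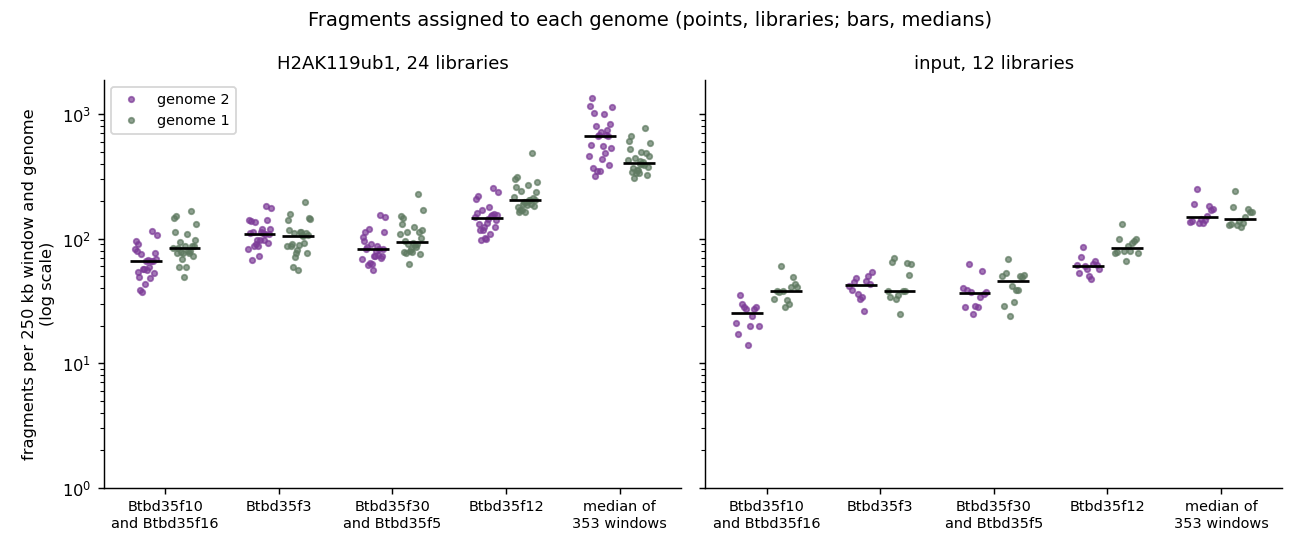
Fragments assigned to genome 2 (purple) and genome 1 (green) in the 4 member windows and in the median of 353 windows, on a log axis; each point is 1 of 24 H2AK119ub1 libraries (left) or 12 inputs (right) and each bar the median. In the H2AK119ub1 panel the member medians lie between 66 and 203 fragments, below those of the median window at 670 and 406.

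In input DNA, before the antibody, genome 2 was below genome 1 on average in all 4 windows, by little in the Btbd35f3 window. Across the 12 inputs the log2 ratio averaged -0.66 in the Btbd35f10 and Btbd35f16 window, -0.10 in the Btbd35f3 window, -0.21 in the Btbd35f30 and Btbd35f5 window and -0.51 in the Btbd35f12 window. Its SD over those inputs was 0.359, 0.341, 0.354 and 0.172, against counting errors of 0.382, 0.32, 0.329 and 0.247, so the input spread of each window was about that of counting. Over all genotypes the input ratio of induced minus uninduced cells was -0.14, -0.29, -0.15 and 0.03 in the 4 windows, and 0 of 4 passed (limma, Benjamini-Hochberg adjusted p under 0.05, the rule for every call below) against 0.283% of all windows (1 of 353, 14 at an unadjusted p under 0.05).

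Split by genotype, the inputs moved by more. The change was 0.48 and -0.65 in Spen and WT inputs of the Btbd35f10 and Btbd35f16 window, and -0.87 and 0.30 in those of the Btbd35f30 and Btbd35f5 window. The Spen minus WT difference of input changes was 1.12 ± 0.34 (SE) in the first of these windows (limma adjusted p = 0.39, unadjusted 0.00541) and -1.17 ± 0.32 in the other (limma adjusted p = 0.355, unadjusted 0.00301). None of the 4 windows passed, 2 did so unadjusted, and 0.283% of all windows passed. The SEs of 0.34 and 0.32 were below the median counting error of 1 input library of those windows (0.382 and 0.329). The unadjusted p-values thus rest on a spread below counting error. The split by genotype was chosen after the H2AK119ub1 values had been seen.

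Across the chromosome, 3 h of Xist raised H2AK119ub1 on genome 2. In the 4 Btbd35f windows no rise passed the test in any genotype in the main fit. That fit used all libraries, a pseudocount of 1% of the median window and no clone as a block. Some fits with other settings did call a rise, as given below. Every induced library had a median log2 ratio above that of its uninduced partner: 0.65 and 0.35 in Spen clones C3 and C4 against 0.24 and -0.09 uninduced, 1.01 and 0.86 in SPOC clones C11 and H1 against 0.29 and 0.19, and 1.24 in WT against 0.17. Genome 2 was thus the side that gained the mark. Its strain is not named in the sources used here. Xist was induced from the X with the TetOn promoter, so by the design genome 2 stands for that X and the other genome for the Cast X. The members' changes at 3 h ran from -0.01 to 0.38 in Spen clones, from -0.20 to 0.18 in SPOC clones and from -0.32 to 0.57 in WT.

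In the Btbd35f10 and Btbd35f16 window the log2 ratio was -0.21 and -0.35 in induced Spen clones C3 and C4, against -0.57 and -0.45 uninduced. It was -0.17 and -0.26 in induced SPOC clones C11 and H1, against -0.36 and -0.43 uninduced, and -0.39 in induced WT, against -0.63 uninduced. Each induced library was above its own uninduced partner, and all 10 libraries were below 0.

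In the Btbd35f3 window the induced Spen clones had 0.24 and 0.36, against -0.08 and -0.08 uninduced. The induced SPOC clones had 0.05 and 0.29, against 0.29 and -0.26 uninduced, and induced WT had 0.08, against 0.10. In the SPOC clones the states overlapped, and clone C11 went down while H1 went up.

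In the Btbd35f30 and Btbd35f5 window the induced Spen clones had -0.07 and -0.63, against -0.17 and -0.52 uninduced. The induced SPOC clones had -0.27 and -0.18, against -0.01 and -0.04 uninduced, and induced WT had -0.01, against -0.59. The SPOC clones were lower after induction, WT was higher, and the Spen clones differed more from each other than between states.

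In the Btbd35f12 window the induced Spen clones had -0.25 and -0.42, against -0.40 and -0.87 uninduced. The induced SPOC clones had -0.51 and -0.25, against -0.53 and -0.60 uninduced, and induced WT had -0.88, against -0.55. Both mutants were higher after induction in each clone, and WT was lower.

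**Figure D2:**
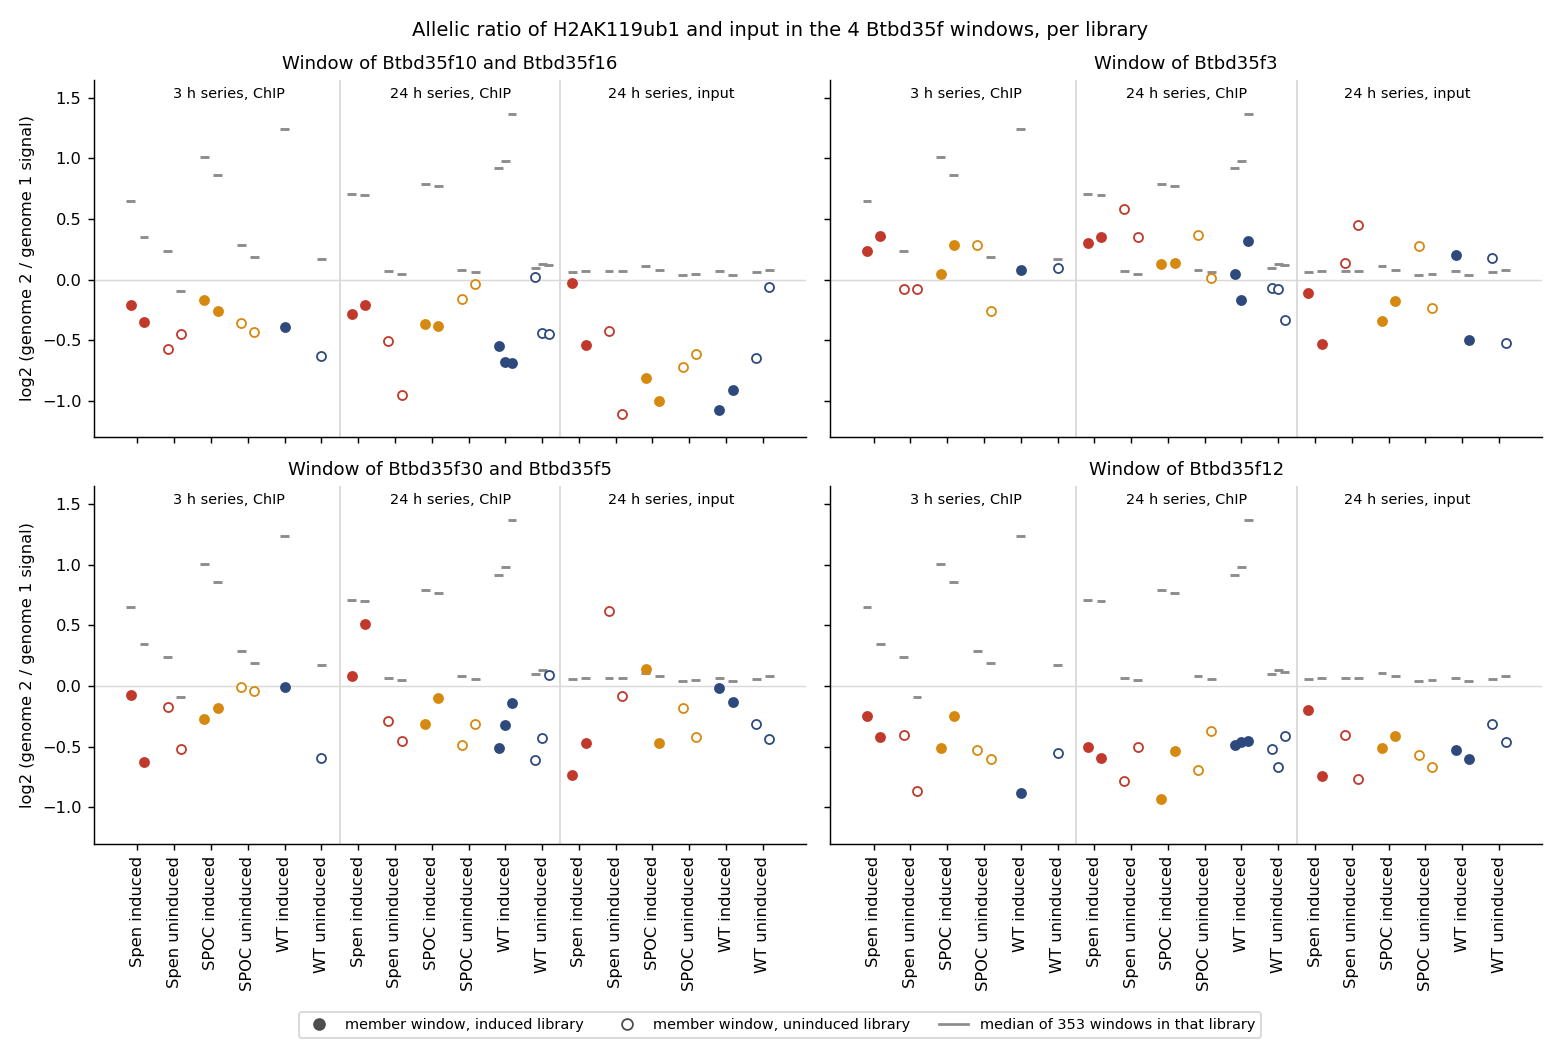
The log2 ratio of genome 2 to genome 1 (y axis) in each library for the 4 member windows, in the 3 h series, the 24 h series and the 24 h inputs; filled points are induced and open points uninduced libraries, and grey bars give the median of 353 windows in the same library. In each induced H2AK119ub1 library but induced Spen clone C4 at 3 h, where the Btbd35f3 window has 0.36 and the median 0.35, all 4 member points lie below the grey bar.

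The changes had wide intervals. The fit gave every window the same spread, so that an SE of 0.20 in the mutants and 0.29 in WT stands for well and poorly covered windows alike. Counting alone gives a 3 h change an SE of 0.23 (mutants) and 0.33 (WT) in the Btbd35f10 and Btbd35f16 window, above the fitted one, and of 0.14 to 0.21 (mutants) and 0.22 to 0.30 (WT) in the others. In the Btbd35f10 and Btbd35f16 window the log2 change at 3 h was 0.23 ± 0.20 (SE) in Spen clones, 0.18 ± 0.20 in SPOC clones and 0.24 ± 0.29 in WT, with 95% intervals of -0.17 to 0.62, -0.22 to 0.58 and -0.32 to 0.80. In the Btbd35f3 window it was 0.38 (-0.02 to 0.77), 0.15 (-0.24 to 0.55) and -0.02 (-0.59 to 0.54). In the Btbd35f30 and Btbd35f5 window it was -0.01 (-0.40 to 0.39), -0.20 (-0.59 to 0.20) and 0.57 (0.01 to 1.13), and in the Btbd35f12 window 0.30 (-0.10 to 0.70), 0.18 (-0.21 to 0.58) and -0.32 (-0.88 to 0.24). The median over 353 windows was 0.42 in Spen clones, 0.71 in SPOC clones and 1.06 in WT.

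In SPOC clones the median lay above the upper bound of every member. In WT it did so for the windows of Btbd35f10 and Btbd35f16, of Btbd35f3 and of Btbd35f12. In Spen clones it did so for the Btbd35f30 and Btbd35f5 window. The members' own medians were 0.26, 0.17 and 0.11 in Spen, SPOC and WT.

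In the test of a higher ratio, 0 of 4 member windows passed in Spen clones, against 43.6% of all windows (154 of 353). In SPOC clones 0 of 4 passed against 74.2%, and in WT 0 of 4 passed against 79.3%. The nearest was the Btbd35f30 and Btbd35f5 window in WT (limma adjusted p = 0.0554, unadjusted 0.0443), the only one of the 12 tests below 0.05 unadjusted. It passed when either Spen clone was left out (limma adjusted p = 0.00872), which changes only the spread that WT borrows. With the spread set by the fragments behind each window, an alternative chosen after seeing the data, 0 of 4 passed in each genotype, against 40.2%, 70.3% and 77.9% of all windows in Spen clones, SPOC clones and WT, and this window had a limma adjusted p of 0.0836.

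Same-numbered libraries are the same clone, and with the clone as a block the spread shrank and more windows passed. In Spen clones 3 of 4 members then rose, against 76.5% of all windows: the windows of Btbd35f10 and Btbd35f16 (limma adjusted p = 0.037), of Btbd35f3 (0.0262) and of Btbd35f12 (0.0191). In WT the Btbd35f30 and Btbd35f5 window rose (limma adjusted p = 0.000816), 1 of 4 against 91.2% of all windows. In SPOC clones 0 of 4 passed with the block, against 87.3%. The SE of the members was then 0.09 to 0.14 in the mutants and 0.13 to 0.20 in WT, below that of counting alone in every member window. With the block and the spread set by fragments, 2 of 4 passed in Spen clones against 77.3%, the windows of Btbd35f3 (limma adjusted p = 0.0371) and Btbd35f12 (0.0494), and 1 of 4 in WT against 91.5%, the Btbd35f30 and Btbd35f5 window (0.0275). The Btbd35f10 and Btbd35f16 window no longer passed in Spen clones (limma adjusted p = 0.276).

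Set against the chromosome, the members fell behind. With the median window of each library set to 0 (centring), 4 of 4 were lower in SPOC clones, by -0.52, -0.54, -0.90 and -0.52 in the order above (limma adjusted p from 8.41e-05 to 0.0244), against 25.8% of all windows. In WT 4 of 4 were lower, by -0.83, -1.10, -0.50 and -1.40 (limma adjusted p from 0.000103 to 0.02), against 26.9%. In Spen clones 1 of 4 was lower, the Btbd35f30 and Btbd35f5 window (-0.43, limma adjusted p = 0.0099), against 14.4%. Here too the SE (0.11 to 0.18 in the mutants, 0.16 to 0.26 in WT) was below that of counting in every window. With the spread set by fragments, 4 of 4 were lower in SPOC clones against 28.0% of all windows, 3 of 4 in WT against 27.2%, and 0 of 4 in Spen clones against 16.4%. The call lost in both was the Btbd35f30 and Btbd35f5 window (limma adjusted p = 0.134 in WT and 0.0785 in Spen clones). Lower here means relative to the median window, which itself moved by 0.42, 0.71 and 1.06 in Spen clones, SPOC clones and WT.

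**Figure D3:**
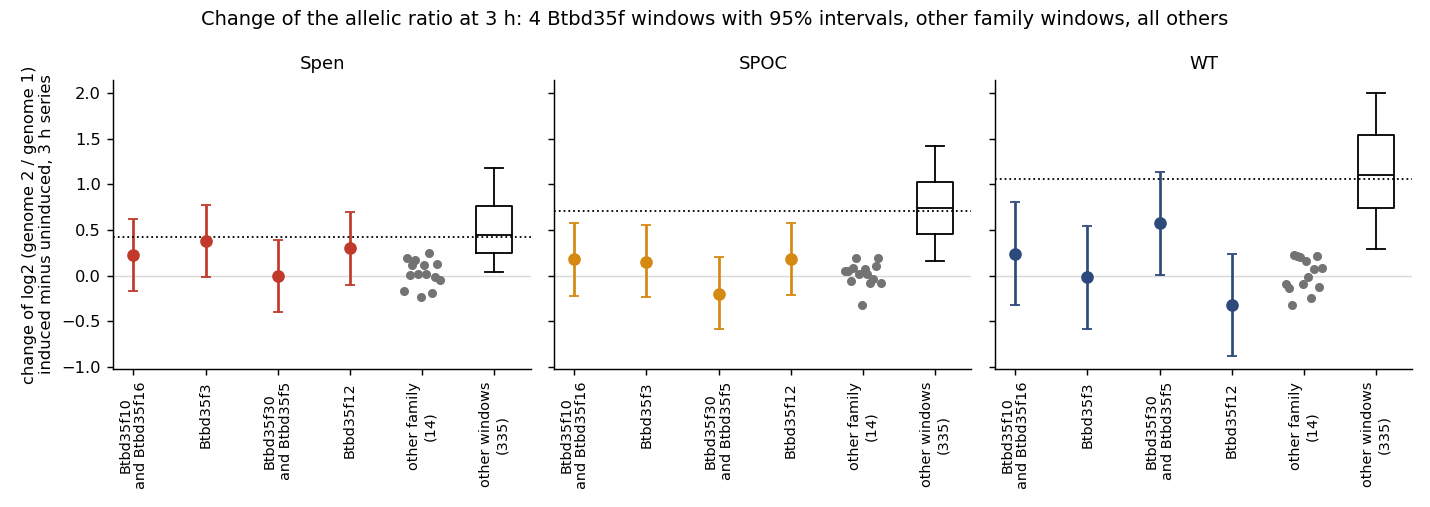
Change of the log2 ratio at 3 h, induced minus uninduced, in Spen clones, SPOC clones and WT: coloured points are the 4 member windows with 95% intervals, grey points 14 other family windows, and the box the other 335 windows (quartiles, whiskers at the percentiles 5 and 95), with the median of all 353 as a dotted line. The grey points lie between -0.32 and 0.25 and the coloured points between -0.32 and 0.57, while the dotted line stands at 0.42, 0.71 and 1.06.

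Whether the response at 3 h differed between genotypes could be judged only roughly, with SE of 0.35 for a difference from WT. The Spen minus WT difference was -0.01, 0.40, -0.58 and 0.62 in the 4 windows, against a median of -0.60 for all windows. None of the 4 passed, against 15.3% of windows in either direction. The SPOC minus WT difference was -0.06, 0.18, -0.77 and 0.51, with 0 of 4 passing (1 unadjusted) against 0.283%. The Spen minus SPOC difference was 0.05, 0.22, 0.19 and 0.12 (SE 0.29, intervals from -0.51 to 0.78), with 0 of 4 passing against 0.0% (16 of 353 unadjusted).

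With the clone as a block, 2 of 4 Spen minus WT differences passed, against 74.2% of windows. They had opposite signs: the Btbd35f30 and Btbd35f5 window was lower in Spen clones (limma adjusted p = 0.00521) and the Btbd35f12 window higher (0.00797). The same windows passed in SPOC minus WT with the same signs (limma adjusted p = 0.00445 and 0.0401), against 45.0%. Both contrasts use the 1 WT pair of the series, in which these windows had the highest and the lowest change of the 4, 0.57 and -0.32. With the block and the spread set by fragments, only the Btbd35f12 window passed in Spen minus WT (limma adjusted p = 0.0194, against 71.7% of windows) and only the Btbd35f30 and Btbd35f5 window in SPOC minus WT (0.0306, against 49.9%). After centring, 1 of 4 Spen minus WT differences was higher, the Btbd35f12 window (1.27, limma adjusted p = 0.0127), against 1.7% of windows. With centring and the spread set by fragments, the Btbd35f3 window passed too (1.05, limma adjusted p = 0.0425), 2 of 4 against 6.23%. Leaving out Spen replicate 1 gave Spen minus WT differences of -0.69 (Btbd35f30 and Btbd35f5) and 0.78 (Btbd35f12) without centring, with 1 Spen clone left.

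The total H2AK119ub1 signal uses all fragments, whether or not they can be assigned. Its changes had about the error of the allelic ones as deposited, and a smaller one once centred. It moved little at 3 h while most of the chromosome gained, and it did so alike in all 4 windows. In the Btbd35f3 window, for example, the deposited total signal was 164 and 175 in induced Spen clones C3 and C4, against 156 and 156 uninduced. It was 162 and 229 in induced SPOC clones C11 and H1, against 145 and 200 uninduced, and 202 in induced WT, against 183. Each induced library was above its own partner. In each state the SPOC clones differed from each other by more than their partners did, while the uninduced Spen clones were level.

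In the Btbd35f12 window the total signal was 201 and 202 in induced Spen clones, against 187 and 197 uninduced. It was 193 and 263 in induced SPOC clones, against 178 and 233 uninduced, and 231 in induced WT, against 232. Here WT was level and the mutant clones were higher than their partners.

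As deposited, the log2 changes at 3 h of the 4 windows were 0.11, 0.12, 0.12 and 0.07 in Spen clones (SE 0.22), against a median of 0.33 over 669 windows. They were 0.18, 0.18, 0.20 and 0.15 in SPOC clones (SE 0.22), against 0.57, and 0.18, 0.14, 0.19 and -0.01 in WT (SE 0.31), against 0.77. None of the 4 windows passed as higher in any genotype, against 19.4% of windows in Spen clones, 59.8% in SPOC clones and 58.4% in WT.

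Centred on the median window, all 4 were lower in every genotype. The values were -0.32, -0.31, -0.31 and -0.36 in Spen clones (limma adjusted p from 0.0044 to 0.00591), with 39.0% of windows lower. They were -0.43, -0.44, -0.41 and -0.47 in SPOC clones, with 38.9% lower, and -0.66, -0.69, -0.65 and -0.84 in WT, with 36.8% lower. Without Spen replicate 2, none of the 4 passed in Spen clones (-0.20 to -0.27, limma adjusted p from 0.109 to 0.14), and 25 of 669 windows passed in either direction in place of 374.

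The centred lag was smaller in Spen clones than in WT, with a Spen minus WT difference of 0.34, 0.38, 0.34 and 0.48. The windows of Btbd35f3 (limma adjusted p = 0.0491) and Btbd35f12 (0.0386) passed, 2 of 4 against 6.13% of all windows, and with the clone as a block 3 of 4 passed against 13.6%. Without the block, 3 of 16 other family windows and 3 of 5 windows without a family gene inside the family's clusters passed too. Of 24 tested windows up to 2 Mb beyond those clusters, 9 passed. Uncentred, the same difference was -0.07, -0.02, -0.06 and 0.08 (SE 0.38), with 0 of 4 passing against 0.0% of windows (60 of 669 unadjusted). The uncentred intervals ran from -0.81 to 0.82, and the median to which the members are compared moved by 0.33 in Spen clones and 0.77 in WT. SPOC minus WT and Spen minus SPOC passed in none of the 4 windows after centring.

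**Figure D4:**
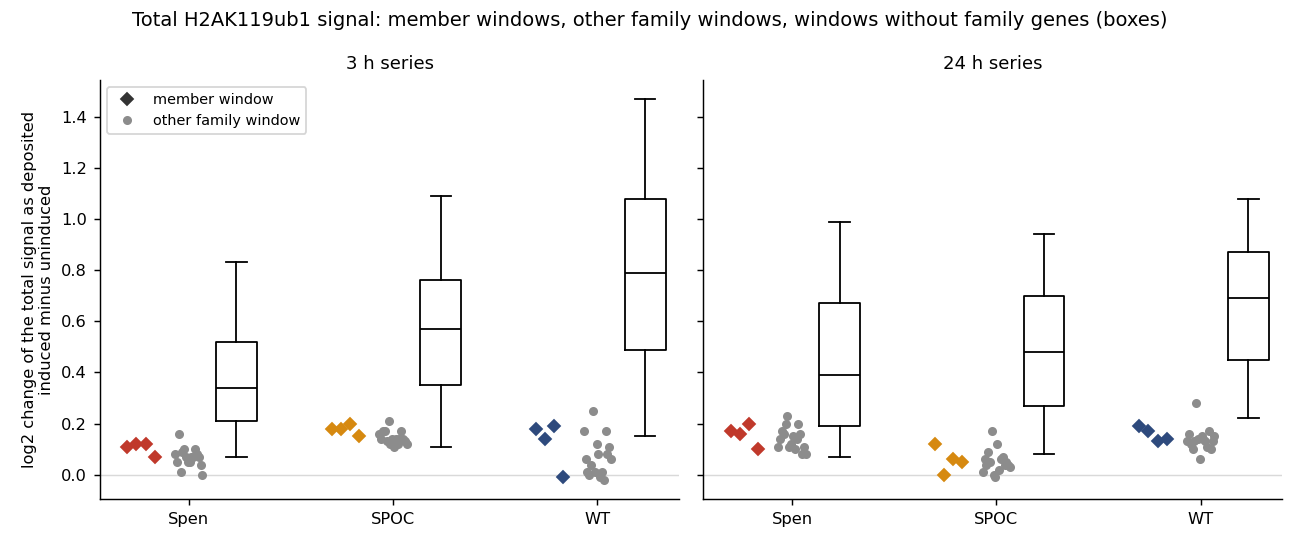
Log2 change of the total signal as deposited, induced minus uninduced, in the 3 h series (left) and the 24 h series (right); diamonds are the 4 member windows, grey points 16 other family windows and boxes the windows without a family gene (quartiles, whiskers at the percentiles 5 and 95). The diamonds lie between -0.01 and 0.20 in every panel and genotype, below the boxes' medians.

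At 24 h, where the members were chosen, the induced chromosome had a median log2 ratio of 0.71 and 0.70 in Spen clones C3 and D4 against 0.07 and 0.05 uninduced. It was 0.79 and 0.77 in SPOC clones E7 and H1 against 0.08 and 0.06 uninduced, and 0.92, 0.98 and 1.37 in WT against 0.10, 0.13 and 0.12. The member windows did not follow it in SPOC clones or WT, and in Spen clones their changes ran from -0.14 to 0.67.

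The Btbd35f10 and Btbd35f16 window had log2 ratios of -0.28 and -0.21 in induced Spen clones C3 and D4, against -0.51 and -0.95 uninduced. The induced SPOC clones E7 and H1 had -0.37 and -0.38, against -0.16 and -0.04 uninduced, and induced WT had -0.55, -0.68 and -0.69, against 0.02, -0.44 and -0.45. Induction went with a higher ratio in both Spen clones and with a lower one in both SPOC clones and all 3 WT pairs.

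The Btbd35f30 and Btbd35f5 window had 0.08 and 0.51 in induced Spen clones, against -0.29 and -0.45 uninduced. The induced SPOC clones had -0.31 and -0.10, against -0.49 and -0.31 uninduced, and induced WT had -0.51, -0.32 and -0.14, against -0.61, -0.43 and 0.09. Both Spen clones and both SPOC clones were higher after induction, and the WT pairs went in both directions.

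The Btbd35f3 window had 0.30 and 0.35 in induced Spen clones, against 0.58 and 0.35 uninduced, 0.13 and 0.14 in induced SPOC clones, against 0.37 and 0.01, and 0.05, -0.17 and 0.32 in induced WT, against -0.07, -0.08 and -0.33. The Btbd35f12 window had -0.50 and -0.59 in induced Spen clones, against -0.78 and -0.50 uninduced, -0.93 and -0.54 in induced SPOC clones, against -0.69 and -0.37, and -0.49, -0.46 and -0.45 in induced WT, against -0.52, -0.67 and -0.41. In both windows the states overlapped or met in each genotype.

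The 24 h changes were 0.48, -0.14, 0.67 and 0.09 in Spen clones (SE 0.17 to 0.18, median of all windows 0.66), in the order Btbd35f10 and Btbd35f16, Btbd35f3, Btbd35f30 and Btbd35f5, Btbd35f12. They were -0.28, -0.06, 0.19 and -0.21 in SPOC clones (median 0.70) and -0.35, 0.22, -0.01 and 0.07 in WT (SE 0.14, median 0.95). Counted from the lowest of 353 windows, the WT ranks were 1, 18, 5 and 9, the SPOC ranks 1, 6, 26 and 2 and the Spen ranks 138, 2, 179 and 24. With the titled SPOC states the SPOC values and their median of 0.70 have the opposite sign. The chromosome's median ratio would then fall on induction in SPOC clones, while it rose in every Spen and WT pair.

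The 24 h changes of each genome in the Btbd35f10 and Btbd35f16 window are given as a description and were not tested. Its 24 h H2AK119ub1 libraries held 37 to 96 fragments of genome 2 and 49 to 151 of genome 1. An SD over so few pairs does not stand for the error of counting. Genome 2 changed by 0.40 ± 0.06 and genome 1 by -0.08 ± 0.30 in Spen clones (SD, n = 2), by 0.32 ± 0.04 and 0.60 ± 0.06 in SPOC clones (SD, n = 2), and by -0.11 ± 0.12 and 0.23 ± 0.21 in WT (SD, n = 3), all in log2 units as deposited. In the Btbd35f30 and Btbd35f5 window Spen clones had 0.38 ± 0.03 on genome 2 and -0.28 ± 0.45 on genome 1, where clone C3 had 0.03 and clone D4 -0.60. The median window changed on genome 2 by 0.58 and 0.60 in Spen clones, by 0.77 and 0.68 in SPOC clones and by 0.93, 1.01 and 1.28 in WT, and on genome 1 by -0.02 to 0.18 in all pairs.

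The input ratios moved beside these 24 h values, and their part in them was not tested. With each library's own input ratio subtracted, and without WT replicate 3, the Spen changes became 0.01, 0.47, 1.54 and -0.01 in the same order, and the WT changes 0.24, -0.01, -0.19 and 0.30. The Spen minus WT difference was then -0.24 ± 0.41 in the Btbd35f10 and Btbd35f16 window, in place of 0.83 ± 0.22, and 1.73 ± 0.38 in the Btbd35f30 and Btbd35f5 window, in place of 0.67 ± 0.23. In the Btbd35f3 window it was 0.48 ± 0.38 in place of -0.36 ± 0.22, and in the Btbd35f12 window -0.32 ± 0.34 in place of 0.03 ± 0.22. The sign of the Spen minus WT difference thus changed in 3 of the 4 windows, and an input ratio of these windows carries a counting error of its own of 0.247 to 0.382. In the Btbd35f10 and Btbd35f16 window the ratio of a 24 h H2AK119ub1 library carried a counting error of 0.19 to 0.3. The SEs above are those of the fit, which can lie below counting error.

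The total signal at 24 h again moved little. It changed by 0.17, 0.16, 0.20 and 0.10 in Spen clones as deposited (median of all windows 0.38), by 0.12, 0.00, 0.06 and 0.05 in SPOC clones (median 0.46) and by 0.19, 0.17, 0.13 and 0.14 in WT (median 0.67). Relative to the library's own input and centred on the median window, H2AK119ub1 in the members was between -0.78 and -0.60 in induced Spen clones, against -0.36 and -0.22 for the extremes uninduced. It was between -0.96 and -0.71 in induced SPOC clones, against -0.46 to -0.19 uninduced, and between -0.83 and -0.62 in induced WT, against -0.38 to -0.17. The 4 windows were thus below the median window before induction and further below it afterwards, in every pair with an input.

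The other Btbd35f copies also had small allelic changes at 3 h, in all 3 genotypes. Of the other 24 family genes, 1 of them the pseudogene Btbd35f24, Btbd35f28 lies in a member window, that of Btbd35f3. The rest lie in 16 more windows, of which 14 had enough allelic fragments. Together with the members these form a first cluster of 8 windows from 3000001 to 5750000 and a second of 12 windows from 31000001 to 34500000. The 3 h change of the allelic ratio in the 14 windows ranged from -0.23 to 0.25 in Spen clones (median 0.02), from -0.32 to 0.19 in SPOC clones (0.03) and from -0.32 to 0.23 in WT (0.02). None of the 14 passed as higher in any genotype, against 43.6%, 74.2% and 79.3% of all windows in Spen clones, SPOC clones and WT, and with the clone as a block 1 of 14 did in Spen clones, against 76.5%. Centred, 7 of 14 were lower in Spen clones, 14 in SPOC clones and 14 in WT, against 14.4%, 25.8% and 26.9%. With centring and the block, 13 of 14 were lower in Spen clones, against 22.4%. The centred total signal was lower in 16 of 16 of the other family windows in each genotype, against 39.0%, 38.9% and 36.8%.

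The family windows with more assignable sequence lay in the same range. Those of Btbd35f7 (47.9% assigned) and Btbd35f29 (45.0%), close to the chromosome's median share of 46.8%, changed at 3 h by 0.17 and 0.02 in Spen clones, 0.19 and 0.02 in SPOC clones and 0.21 and 0.20 in WT. The lowest SPOC value was that of the Btbd35f19 and Btbd35f26 window (-0.32), and the lowest WT value that of Btbd35f17 and Btbd35f20 (-0.32, 13.6%). The windows of Btbd35f1 and Btbd35f21, Btbd35f2, Btbd35f4 and Btbd35f27, Btbd35f6, Btbd35f8, Btbd35f9, Btbd35f11, Btbd35f22, Btbd35f23 and Btbd35f24, and Btbd35f25 lay within those ranges.

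Windows outside the family with as low an assigned share had larger changes in the median, with ranges that reached those of the family. Outside the family, 25 windows had an assigned share no higher than the highest member, and their median change at 3 h was 0.33 in Spen clones, 0.51 in SPOC clones and 0.99 in WT, against 0.44, 0.77 and 1.13 in the 310 windows above that share. The 8 family windows in the same range of shares had medians of 0.13, 0.11 and -0.06. This is a description, and the 25 windows ran from -0.21 to 0.90 in Spen clones, from -0.03 to 1.12 in SPOC clones and from 0.01 to 1.83 in WT.

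Small changes were also seen in windows inside the clusters that hold no Btbd35f gene. The 5 such windows, which include those of Mycs and Gm21637 and were looked at after the family values were known, changed at 3 h by -0.07 to 0.31 in Spen clones, 0.12 to 0.21 in SPOC clones and -0.10 to 0.13 in WT. Past the end of the first cluster the WT change was 0.57 in the next window, then 0.60 (Ezhip, Nudt10 and Nudt11), 0.68 (Bmp15) and 0.91 (Shroom4), and it was 1.04 in the window of Usp27x. The first of these was not called (limma adjusted p = 0.0559) and the following were. Its change was that of the Btbd35f30 and Btbd35f5 window inside the second cluster (0.57, not called). Past the second cluster the WT change was 0.15 in the next window, and 1.48 in the window of Il13ra1 and Zcchc12 and 1.06 in that of Gm14569 and Lonrf3, the first windows beyond with enough assigned fragments. Between them, and for 2 Mb before the second cluster, at most 2.56% of the signal was assigned. The 3 windows next to a member window with enough fragments passed in 0 cases, against the 43.6%, 74.2% and 79.3% of all windows given above.

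**Figure D5:**
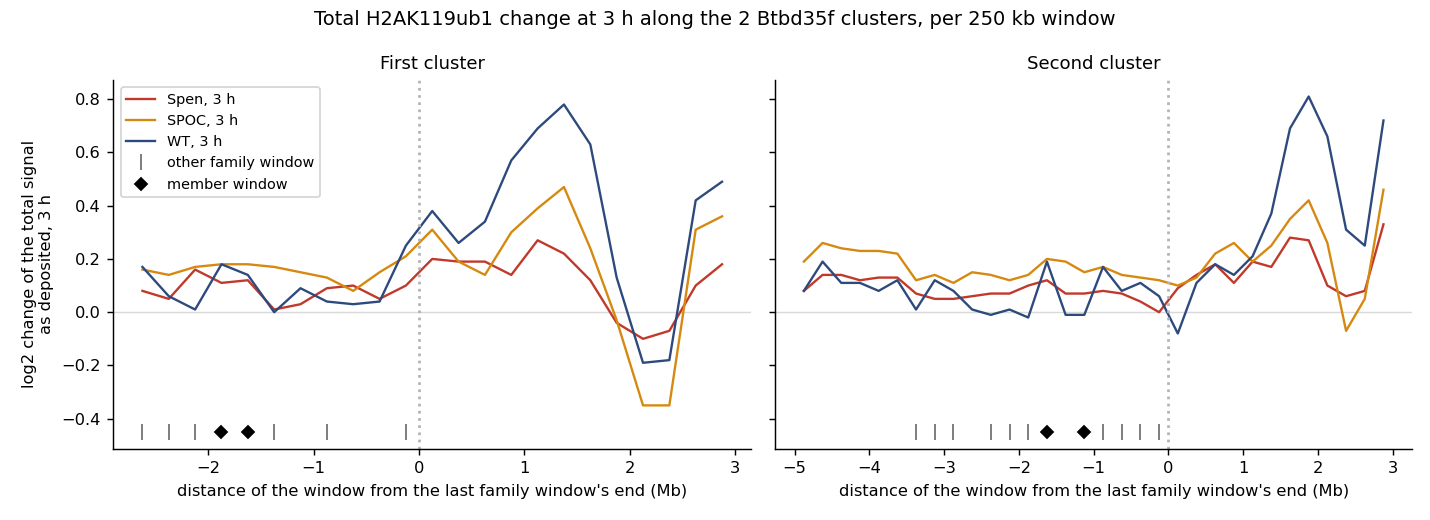
Log2 change of the total signal as deposited at 3 h in successive windows, by distance in Mb from the end of the last family window of each cluster; lines are Spen clones, SPOC clones and WT, diamonds member windows and ticks other family windows. Left of the dotted line the lines stay low, and to the right the WT line climbs to 0.78 past the first cluster and 0.81 past the second before falling again.

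Windows on a list drawn up by gene symbol for other X-linked germline multicopy families were called about as often as the chromosome as a whole. Of 43 windows on the list (among them those of Mage, Rhox, Xlr, Slx, Fthl17, Samt and H2al1 genes, drawn up with results of these data known), 41 had enough fragments. The windows of Slx (3.15% of the signal assigned) and Slxl1 (11.6%) did not, so these genes are not among the 41. At 3 h the ratio was higher in 17 of 41 in Spen clones, 29 in SPOC clones and 34 in WT, against 43.6%, 74.2% and 79.3% of all windows. The medians were 0.42, 0.58 and 0.93, against 0.42, 0.71 and 1.06 over all windows. In WT these ran from 0.28 in the window of H2al1o, which codes for a histone H2A variant of the testis, and 0.33 in that of Tex13c3, to 2.35 in those of Tsga8 and Fthl17a. The windows of H2al1o and Tex13c3 were not called in WT, and had 0.27 and 0.14 in Spen clones and 0.17 and 0.33 in SPOC clones. All 4 Btbd35f member windows except that of Btbd35f30 and Btbd35f5 (0.57) lay below the lowest of these 41 windows in WT. The list also held the windows of Maged1, Spin4, Tktl1, Usp26 and Tsga8, with WT changes from 1.51 to 2.35. Whether these genes belong to multicopy germline families was not checked.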

How the data were processed

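H2AK119ub1 native ChIP-seq (MNase-digested chromatin, with N-ethylmaleimide against deubiquitination) and input DNA were deposited as signal per 250 kb window of the X chromosome, for all reads and for reads assigned to genome 1 or genome 2. Alignment with Bowtie2 2.2.6 to mm10, with Picard and bedtools, is named in the submitters' processing notes. The scaling and the treatment of multiply mapped reads are not given in the sources used here. The strain of each genome is not named there either, and was read from the side that gained the mark on induction. The Drosophila SG4 cells added as a spike-in at 24 h were not used for scaling. The signal deposited by the authors summed to 116006 to 277241 per H2AK119ub1 library and 177468 to 189684 per input over all windows.

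From these signals log2((genome 2 + p)/(genome 1 + p)) was computed, with p 1% of the median window, for windows where both genomes averaged at least 10% of the median window (353 of 414, 669 of 685 for all reads). Differences were fitted over all windows with limma 3.58.1 in R 4.3.3, with Benjamini-Hochberg adjustment at 0.05, in 1 model for the 10 libraries of the 3 h series, 1 for the 14 of the 24 h series and 1 for the 12 inputs. Changes are induced minus uninduced, and intervals are 95%. The total signal was centred on each library's median window. Tables and plots used Python 3.11.15, numpy 2.4.6, pandas 2.3.3, scipy 1.17.1 and matplotlib 3.10.9, and the fit was tested on simulated data. The labels name clones but no separate cultures within a clone, so p-values measure the spread between these libraries.

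The listed genes, the gene lists and the tests were chosen with earlier results of these data known. Every listed gene is named with its window, then the other Btbd35f genes, then the list drawn up for other germline multicopy families by count and extremes, then the windows next to a member. Pairing of libraries rests on the clone or, for WT, on the shared day of handling. Deviations from group means correlated within pairs by 0.18 and 0.31 at 3 h (Spen, SPOC), and by -0.00091, 0.12 and -0.1 to 0.029 at 24 h (Spen, SPOC, WT). Alternatives were the pseudocount, the filter, centring, the clone as a block, a spread that depends on the fragments behind a window (limma's trend), the own input, the titled SPOC states and leaving out each replicate.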

Additional observations from a re-analysis of the deposited data

Results flagged for a closer look

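The following differences between genotypes were flagged in the member windows, and they are not all particular to them. At 24 h the Btbd35f10 and Btbd35f16 window was higher after induction in 2 of 2 Spen clones and lower in 3 of 3 WT pairs, a Spen minus WT difference of 0.83. It was also lower in 2 of 2 SPOC clones, a Spen minus SPOC difference of 0.76. Neither difference was tested, since the genes were chosen on these libraries. The input ratio of the same window differed between Spen and WT by 1.12, and its part in the H2AK119ub1 difference was not tested. At 3 h the centred total signal lagged less in Spen clones than in WT, by 0.38 in the Btbd35f3 window (limma adjusted p = 0.0491) and by 0.48 in the Btbd35f12 window (limma adjusted p = 0.0386), in 2 of 2 Spen clones each. Without centring these differences were -0.02 and 0.08, and neither passed. WT had 1 pair of libraries at 3 h. The centred difference was also called higher in 3 of 5 windows inside the clusters without a family gene (median 0.45, against 0.36 in the members). So it was in 3 of 16 other family windows and in 9 of 24 tested windows up to 2 Mb beyond the clusters. No group held 4 libraries, so single libraries were not screened for standing apart.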

How the results depend on the processing

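Centring on the median window changed the sign of most 3 h allelic changes. It gave -0.19, -0.05 and -0.12 in Spen clones (Btbd35f10 and Btbd35f16, Btbd35f3, Btbd35f12), -0.52, -0.54 and -0.52 in SPOC clones, and -0.83 (Btbd35f10 and Btbd35f16) and -0.50 (Btbd35f30 and Btbd35f5) in WT, with and without the replicate block. Members called were then 1 in Spen clones, 4 in SPOC clones and 4 in WT, in both fits. The shares of all windows called lower were 14.4%, 25.8% and 26.9% without the block, and 22.4%, 33.7% and 30.9% with it. The Spen minus WT difference became 0.64 (Btbd35f10 and Btbd35f16) and 0.07 (Btbd35f30 and Btbd35f5), and the SPOC minus WT difference of the first 0.31. Centring called 9 windows and 1 member in Spen minus WT and 0 windows in SPOC minus WT. Centring with the replicate block called 3 members in Spen minus WT, 1 member and 21 windows in SPOC minus WT, and 5 windows in Spen minus SPOC. The share of all windows called in Spen minus WT in that fit is not given here.

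The replicate block alone called 271 windows and 3 members in Spen clones, 1 member in WT, 262 windows and 2 members in Spen minus WT, 159 windows and 2 members in SPOC minus WT, and 81 windows in Spen minus SPOC. It changed no other call on a member in the 3 h allelic results. A pseudocount of 0.1% called 1 member in WT and 0 input windows. One of 5% called 85 windows in Spen minus WT and 0 in SPOC minus WT. With no filter on low windows, Spen minus WT had 3 windows, SPOC minus WT 0 and input 0. A filter at 25% gave 0 in SPOC minus WT and kept only the Btbd35f12 window among the members.

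With the spread set by fragments, chosen after seeing the data, 14 windows were called in Spen minus WT and 0 in SPOC minus WT. With the replicate block as well, 273 windows and 2 members were called in Spen clones, 1 member in WT, 253 windows and 1 member in Spen minus WT, 176 windows and 1 member in SPOC minus WT, and 113 windows in Spen minus SPOC. With centring, 4 members were called in SPOC clones, 3 in WT and 2 in Spen minus WT. With centring and the block, 1 was called in Spen clones, 4 in SPOC clones, 3 in WT, 2 in Spen minus WT and 1 in SPOC minus WT, with 19 windows in SPOC minus WT and 17 in Spen minus SPOC. The shares of all windows called with these settings in the single genotypes and in Spen minus WT are not given here. Those member counts are therefore not set against the chromosome.

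Leaving out 1 replicate at a time gave 141 to 289 called windows in SPOC clones, 1 to 135 in Spen minus WT and 0 to 4 in SPOC minus WT. Without SPOC replicate 1 or 2, 141 and 169 windows were called in SPOC clones. Without either SPOC replicate, 1 was called in Spen minus WT, against 135 and 124 without Spen replicate 1 and 2. Members called ranged from 0 to 1 in WT and from 0 to 2 in Spen minus WT. The Btbd35f30 and Btbd35f5 window ranged from -0.11 to 0.10 in Spen clones, and the Btbd35f3 window from -0.24 to 0.55 in SPOC clones. Spen minus WT ranged from -0.15 to 0.13 (Btbd35f10 and Btbd35f16), SPOC minus WT from -0.22 to 0.58 (Btbd35f3), and Spen minus SPOC from -0.09 to 0.19 (Btbd35f10 and Btbd35f16), -0.17 to 0.62 (Btbd35f3) and -0.04 to 0.28 (Btbd35f12). Input changes ranged from -0.28 to 0.01 (Btbd35f10 and Btbd35f16), -0.24 to 0.09 (Btbd35f30 and Btbd35f5) and -0.02 to 0.08 (Btbd35f12), with 0 to 1 windows called.

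The total signal in Spen clones had 25 to 401 called windows and 0 to 4 called members over those left out, with 25 without replicate 2 and 155 without replicate 1. As deposited it had 130 windows called in Spen clones, and 0 members in any genotype. The members were then 0.11, 0.12, 0.12 and 0.07 in Spen clones, 0.18, 0.18, 0.20 and 0.15 in SPOC clones, and 0.18, 0.14 and 0.19 in WT (all but Btbd35f12).

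At 24 h the members' median was 0.29 in Spen clones, -0.13 in SPOC clones and 0.03 in WT. Centred it was -0.35, -0.84 and -0.94, and 0.26 to 0.37 in Spen clones over the replicates left out. With the titled states SPOC had 0.13. The Spen minus WT median of 0.35 became 0.68 centred and 0.12 with the own input subtracted, and the SPOC minus WT median of -0.10 became 0.16 centred. The causes of these shifts were not tested. Of the other values, 376 of single windows and 238 of counts and medians kept their direction and side of the threshold, or moved by less than the spread. With 48 to 257 fragments of genome 2 per library of the 3 h series, counting alone gives a member's 3 h change an SE of 0.14 to 0.33. The fits with the block, and those with centring and 1 prior spread, gave each member a smaller SE than counting alone, so these calls rest on a spread below counting error.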
